A study of Homo sapiens with 6 samples.

Results

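The 51 genes described here encode the secreted ligands, extracellular antagonists, receptors, SMAD proteins and immediate targets of transforming growth factor beta (TGF-β) and bone morphogenetic protein (BMP) signalling. They were chosen by symbol among the protein-coding genes of a table of 58735 genes. All 51 were found. The RNA came from cells labelled MG63, an established human osteosarcoma line, transfected with siRNA against FUBP1 (siFUBP1, 3 samples) or with a control siRNA (siMock, 3 samples) and collected 48 h later. FUBP1 encodes a single-stranded nucleic acid binding protein known for its control of MYC transcription, and the study examined it as a determinant of the response to the platinum drug lobaplatin. The samples differed in the siRNA alone, and no drug is given in their labels. Total counts per sample were 16889572, 17484313 and 16309900 in siMock and 16502690, 16499842 and 17073410 in siFUBP1. The methods speak of repeated experiments in general, but neither they nor the labels say whether the 3 RNA samples of a group were separate cultures, so p-values measure the spread between these samples, which may be technical.

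TGF-β, activins and BMPs are dimeric ligands that bring together a pair of type II and a pair of type I serine/threonine kinase receptors. The type I receptor then phosphorylates receptor-regulated SMADs, SMAD2 and SMAD3 for TGF-β and activin and SMAD1, SMAD5 and SMAD9 for BMPs, and these enter the nucleus with SMAD4. The pathway controls osteoblast differentiation and bone matrix, and several of its own inhibitors are among its targets, as are the ID genes for the BMP branch.

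The labelled cell type was compared with its markers. Of 14 osteoblast and mesenchymal markers, COL1A2, IBSP and PRRX1 had no read in any sample, and SPARC, CDH11, THY1, ALPL and SP7 had at most 5 reads in any sample. The remaining markers of that list were led by VIM, at 149 ± 9.05 CPM in siMock and 194 ± 17.0 CPM in siFUBP1 (SD, n = 3), where CPM is the count normalized to a library size scaled by the TMM (trimmed mean of M values) factor. COL1A1 was at 113 ± 4.68 CPM in siMock and 45.5 ± 0.15 CPM in siFUBP1, and FN1 at 113 ± 11.2 and 65.5 ± 1.11 CPM. RUNX2 was at 0.448 ± 0.0564 CPM in siMock and 4.05 ± 1.70 CPM in siFUBP1, TWIST1 at 0.75 ± 0.335 and 1.41 ± 1.13 CPM, and BGLAP at 0.182 ± 0.0537 and 0.599 ± 0.142 CPM. Keratins of simple epithelia were the most abundant markers measured, with KRT8 at 1989 ± 154 CPM in siMock and 993 ± 56.8 CPM in siFUBP1. EPCAM and CDH1, markers of epithelial adhesion, were far lower, at 4.04 and 0.937 CPM in siMock. Summed over the 8 epithelial markers, of which KRT5 had no read, the level was 2930, 2701 and 2554 CPM in the siMock samples and 1480, 1379 and 1508 CPM in the siFUBP1 samples. The summed level of the mesenchymal list was 375, 381 and 376 CPM in siMock and 304, 302 and 329 CPM in siFUBP1. The markers at or near 0 in both groups, and the abundant keratins, go against the labelled cell type, whereas COL1A1, VIM and FN1 were present and EPCAM and CDH1 were low. The samples are called by their labels below. The 8 haematopoietic markers summed to 4.66, 4.355 and 4.03 CPM in siMock and 3.08, 2.59 and 3.09 CPM in siFUBP1. The 6 endothelial markers, led by CDH5, summed to 4.66, 5.65 and 3.65 CPM in siMock and 2.25, 2.65 and 3.04 CPM in siFUBP1. All 4 sums were lower in every siFUBP1 sample than in any siMock sample, and their part in the results below was not tested.

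**Figure D1:**
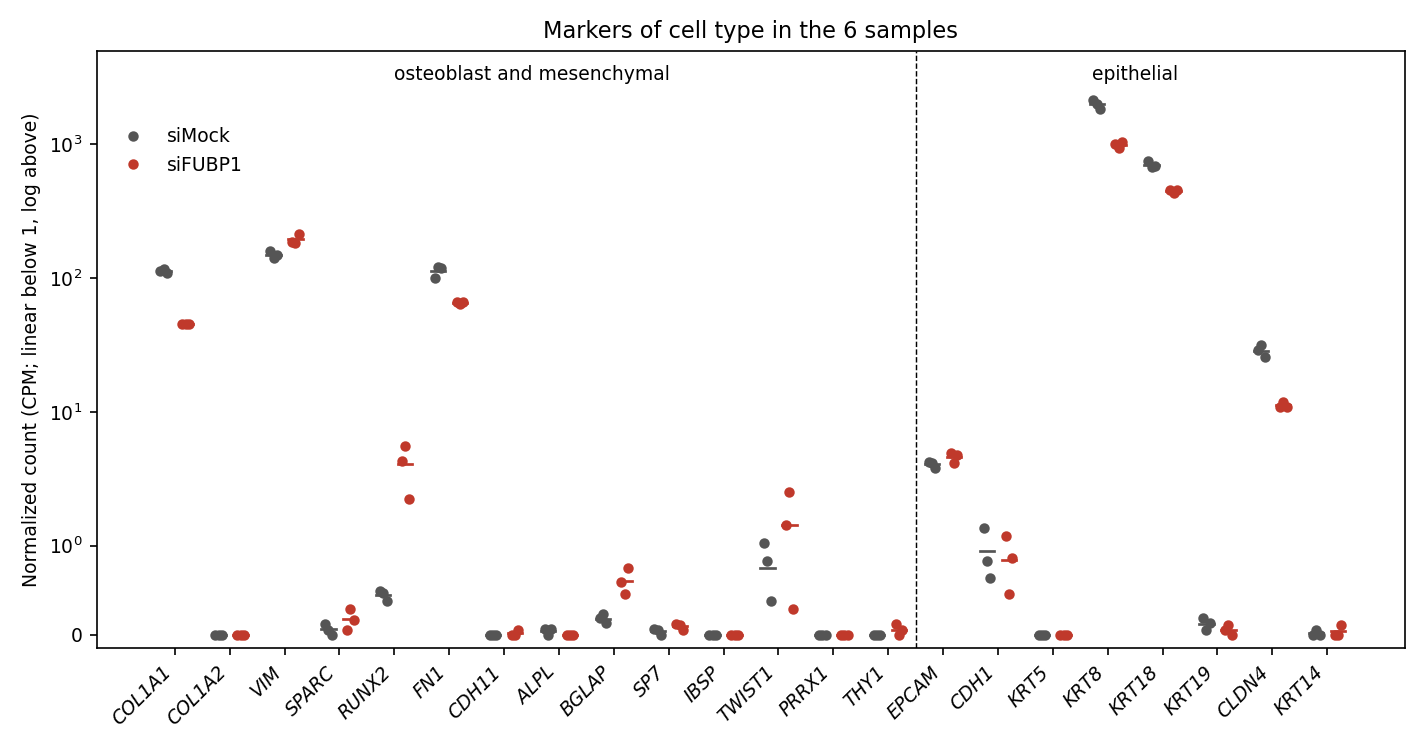
Normalized count in CPM (linear below 1, logarithmic above) of the osteoblast and mesenchymal markers (left of the dashed line) and of the epithelial markers (right), with a point for each sample and a line at the mean of the 3 samples of a group, siMock grey and siFUBP1 red. COL1A2, IBSP and PRRX1 sit at 0 in all 6 samples, and KRT8 stands highest.

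FUBP1 itself was at 237, 255 and 274 CPM in the siMock samples and at 44.3, 43.4 and 53.0 CPM in the siFUBP1 samples. Its log2 fold change was -2.44 (SE 0.0895, adjusted p = 1.90e-17, edgeR), so the labels hold for the targeted gene. The sources used here list 3 FUBP1 siRNAs and do not name the one that was sequenced. Their guide strands are shown because an siRNA can also act on mRNAs that match its seed, bases 2 to 8 of the guide, which are in capitals here.
RNAi#1: uAAACUGAaugcgaacacctt
RNAi#2: uAAGAGGUuugucagcacctt
RNAi#3: uUUCUUCUaugaguugccgtt
A site for the whole seed followed by A was present in the annotated 3′ UTR of 5 members for RNAi#1 (TGFB2, BMP3, ACVR2B, SMAD2 and SKIL), of 2 for RNAi#2 (SMAD2 and SMAD9) and of 7 for RNAi#3 (TGFB2, TGFB3, BMPR1A, ACVR2B, GREM1, SMAD2 and SMAD3). The shares over 12581 tested genes were 4.4%, 2.24% and 11.3%. None of the 13 members past both thresholds, described below, held such a site, but the shorter match to bases 2 to 8 alone was present in INHBB, ACVRL1 and FST for RNAi#1 and in INHBE and ACVR2A for RNAi#2. Such shorter matches were present in 20, 10 and 14 of the 51 members for the 3 guides and in 19.8%, 12.2% and 19.3% of the same 12581 genes. The part of the seeds in the changes was not tested.

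Of the 51 members, 44 passed the filter on low counts and were tested among 16116 genes. In the quasi-likelihood F test of edgeR, 13 members rose and 18 fell in siFUBP1 at an adjusted p below 0.05, with p-values adjusted over all 16116 genes by the Benjamini-Hochberg procedure. The shares among all genes tested were 30.1% higher and 30.1% lower, 60.2% together, so the 70.5% of members past this threshold stood beside a high background. With the further requirement of a log2 fold change beyond 1 in either direction, 4 members were higher (INHBA, INHBE, FST and ACVR2A) and 9 lower (FSTL3, ACVRL1, ID1, LTBP3, INHBB, ID2, ACVR1B, BAMBI and ID3). The background for this stricter rule was 8.16% of genes higher and 9.13% lower, 17.3% together, against 29.5% of the members tested. The median log2 fold change of the members was -0.06 and that of all genes tested 0.00197, whereas the median of its absolute value was 0.79 in the members and 0.44 in all genes. The 2 groups did not overlap in CPM in 34 of the 44 members tested and in 63.9% of all genes. Of the 44, 41 reached the filter's level in both groups, INHBA reached it in siFUBP1 alone and ACVRL1 in siMock alone, so a difference in those 2 genes was in part set by the filter. INHBA is counted in the 4 higher and ACVRL1 in the 9 lower, and both in the 29.5%. In RNA from whole cultures, fewer cells of a type and less RNA per cell cannot be told apart.

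**Figure D2:**
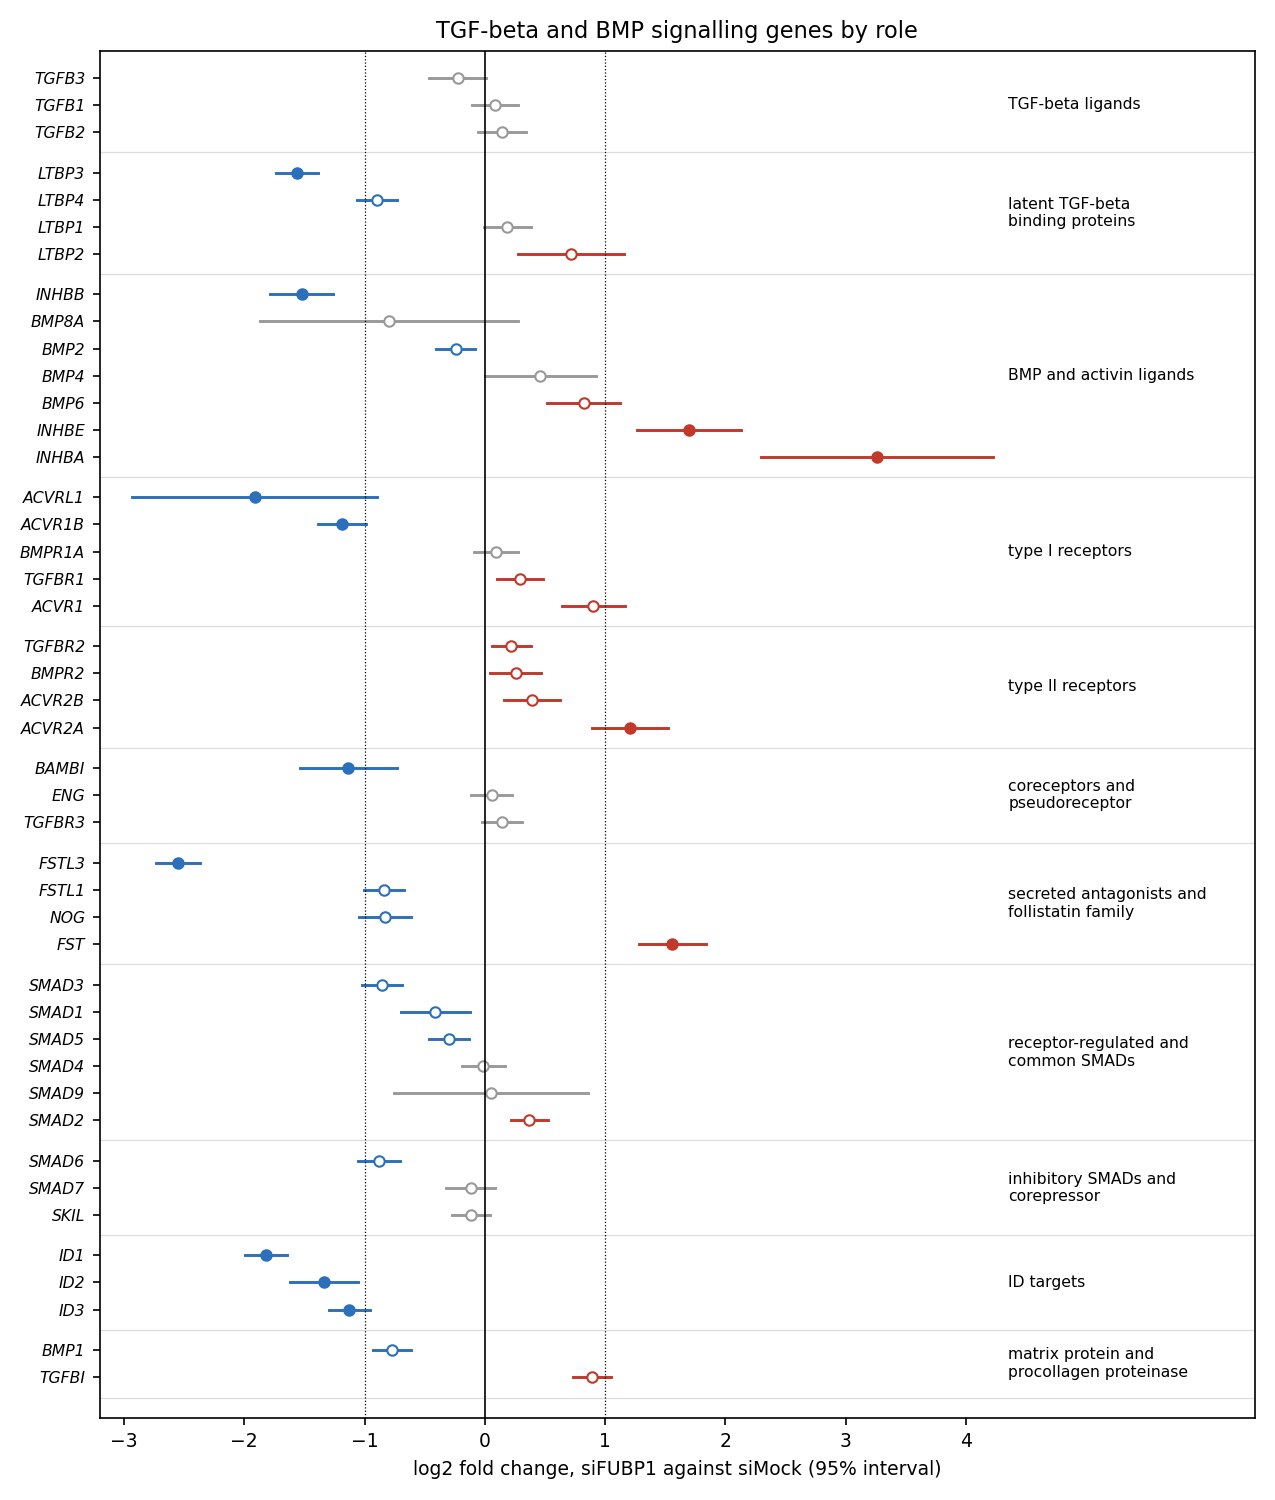
Log2 fold change of siFUBP1 against siMock with its 95% interval for the 44 members tested, grouped by role. Red is higher and blue lower at an adjusted p below 0.05, grey did not pass, filled points are also beyond a log2 fold change of 1 (dotted lines), and all 4 type II receptors lie right of 0 while all 3 ID genes tested lie left of -1.

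The 3 ID genes that were tested, immediate targets of the BMP branch, all fell, where 30.1% of all genes tested fell. ID1, ID2, ID3 and ID4 encode helix-loop-helix proteins without a DNA-binding region, which hold basic helix-loop-helix factors away from DNA. ID1 (ENSG00000125968, chromosome 20, 31605283 to 31606515 on GRCh38) was at 519, 461 and 410 CPM in siMock and at 136, 128 and 130 CPM in siFUBP1. The lowest siMock sample was still above every siFUBP1 sample, and the ID1 log2 fold change was -1.82 (SE 0.0866, adjusted p = 2.09e-15, edgeR), which left 28.3% of the siMock level. ID3 (ENSG00000117318, chromosome 1, 23557918 to 23559794) was at 285, 259 and 231 CPM in siMock and 125, 115 and 115 CPM in siFUBP1. For ID3 the log2 fold change was -1.13 (SE 0.0831, adjusted p = 1.05e-11, edgeR), and the groups again did not overlap. ID2 (ENSG00000115738, chromosome 2, 8678845 to 8684453) had a lower level, 19.1, 18.4 and 22.6 CPM in siMock and 7.93, 6.57 and 9.16 CPM in siFUBP1. It fell by 1.34 on the log2 scale (SE 0.137, adjusted p = 4.52e-09, edgeR), and it overlaps ID2-AS1 on the opposite strand by 38 exonic bases. ID4 had no read in any sample, a count that allows up to 0.184 CPM in the shallowest sample, for counting error only. Per kilobase of gene length, ID1 was the most abundant of all 51 members in siMock, at 376 ± 44.4 RPKM (SD, n = 3), and ranked below BMP2 in siFUBP1, at 106 ± 3.58 RPKM.

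The secreted antagonists and the follistatin family moved in both directions. Follistatin (FST) and follistatin-like 3 (FSTL3) bind and neutralize activins, noggin (NOG) binds BMPs, and FSTL1 is a more distant secreted relative. FSTL3 (ENSG00000070404, chromosome 19, 676365 to 683399) was at 852, 751 and 695 CPM in siMock and 129, 125 and 137 CPM in siFUBP1. This was the largest fall among the 44 members tested, with 17.0% of the siMock level left and a log2 fold change of -2.55 (SE 0.0886, adjusted p = 7.10e-18, edgeR). FST (ENSG00000134363, chromosome 5, 53480409 to 53487134) went the other way, from 8.89, 8.89 and 9.22 CPM in siMock to 22.8, 33.0 and 23.7 CPM in siFUBP1. The FST log2 fold change was 1.56 (SE 0.135, adjusted p = 2.08e-10, edgeR), and the spread between samples was wider in siFUBP1. On the scale per length the 2 relatives came closer, with FSTL3 at 250 ± 25.9 RPKM in siMock and 42.5 ± 2.06 RPKM in siFUBP1, and FST at 3.03 ± 0.0656 and 8.92 ± 1.90 RPKM (SD, n = 3). NOG fell from 49.0, 37.4 and 37.3 CPM to 22.5, 23.5 and 23.4 CPM, a log2 fold change of -0.83 (SE 0.105, adjusted p = 1.68e-07, edgeR). FSTL1 fell from 339, 358 and 336 CPM to 181, 182 and 215 CPM, a log2 fold change of -0.84 (SE 0.0813, adjusted p = 1.68e-09, edgeR), with 316 exonic bases shared with AC063952.1 on the opposite strand. Neither NOG nor FSTL1 reached a log2 fold change of 1. Chordin (CHRD) and gremlin (GREM1), both BMP antagonists, were below the filter, with 13, 9 and 12 reads of CHRD in siMock against 5, 0 and 0 in siFUBP1, and 2 to 11 reads of GREM1 per sample.

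**Figure D3:**
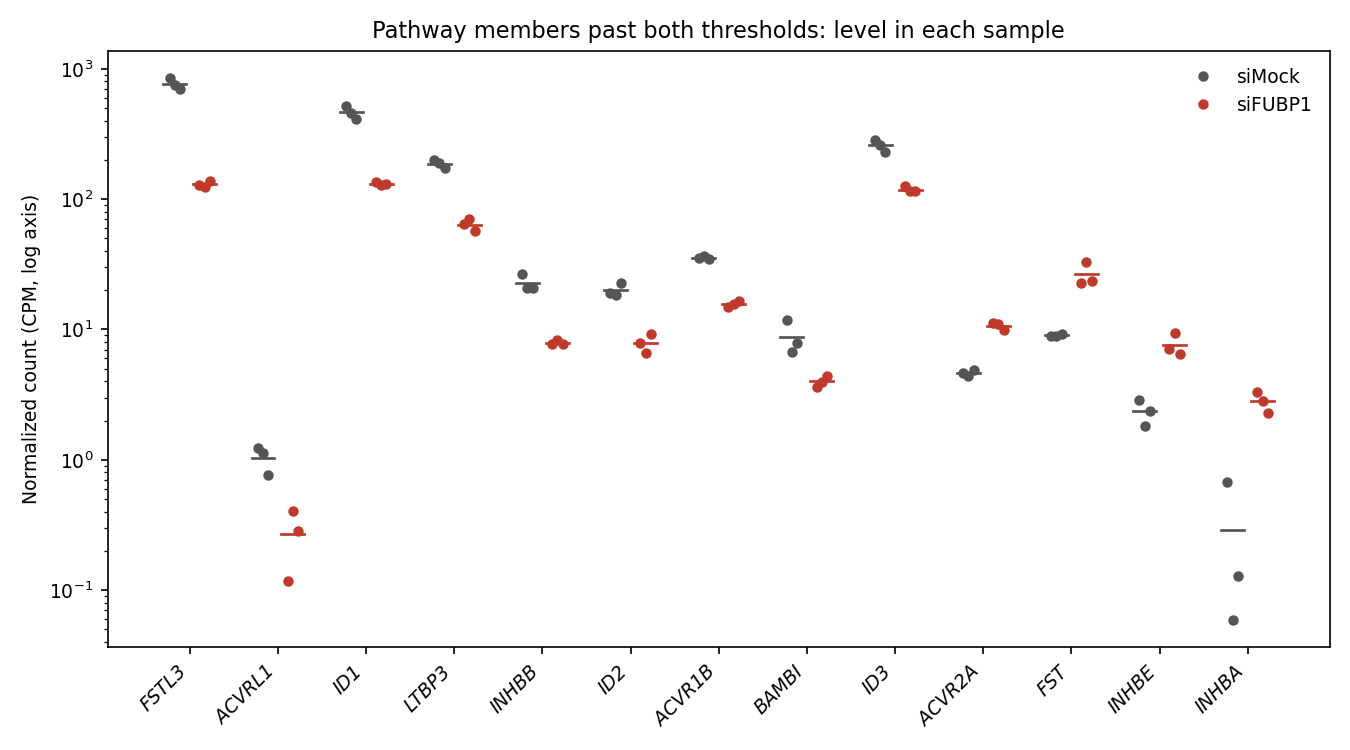
Normalized count in CPM (logarithmic axis) of the 13 members with an adjusted p below 0.05 and a log2 fold change beyond 1, ordered by log2 fold change, with a point for each sample and a line at the mean of the 3 samples of a group (siMock grey, siFUBP1 red). The groups do not overlap in any of the 13, but these were chosen by their difference in the same samples. Over all genes tested, 63.9% do not overlap. FSTL3 and ID1 are the most abundant in siMock.

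Among the 10 ligand members tested, the 3 activin subunits had the largest fold changes, again in both directions. The fold change of INHBA among them was in part set by the filter. The inhibin beta subunits pair to form activins, and INHBB and INHBA encode the subunits of activin B and activin A. INHBB (ENSG00000163083, chromosome 2, 120346143 to 120351808) was at 26.5, 20.8 and 20.9 CPM in siMock and 7.70, 8.30 and 7.73 CPM in siFUBP1. Its log2 fold change was -1.52 (SE 0.129, adjusted p = 1.37e-10, edgeR). INHBA (ENSG00000122641, chromosome 7, 41667168 to 41705834) was counted little, with 11, 1 and 2 reads in siMock and 56, 49 and 40 reads in siFUBP1. The siFUBP1 samples were at 3.32, 2.83 and 2.29 CPM, all above the highest siMock sample at 0.674 CPM. INHBA reached the filter's level in siFUBP1 alone, so no p-value is given for it. The log2 fold change of INHBA was 3.26. The size of that change rests on a few siMock reads: without siMock replicate 1 it was 4.82. INHBE (ENSG00000139269, chromosome 12, 57452323 to 57459280), a subunit made mainly in liver, rose from 2.88, 1.82 and 2.37 CPM to 7.11, 9.34 and 6.47 CPM, a log2 fold change of 1.70 (SE 0.21, adjusted p = 1.19e-07, edgeR).

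BMP2, a ligand that drives bone formation, was the most abundant ligand per length, at 142 ± 7.42 RPKM in siMock and 120 ± 8.09 RPKM in siFUBP1 (SD, n = 3). Its samples were at 538, 485 and 507 CPM in siMock and 417, 411 and 464 CPM in siFUBP1, groups that came close without overlap. The log2 fold change of -0.24 (SE 0.0797, adjusted p = 0.0104, edgeR) did not pass when siFUBP1 replicate 1 was left out, at -0.21. BMP6 rose from 11.03, 10.004 and 9.93 CPM to 19.2, 22.0 and 13.5 CPM, a log2 fold change of 0.82 (SE 0.147, adjusted p = 3.46e-05, edgeR). BMP4 was at 2.85 ± 0.299 CPM in siMock and 3.92 ± 0.736 CPM in siFUBP1 (SD, n = 3), a log2 fold change of 0.46 that did not pass (adjusted p = 0.0803, edgeR). It did pass without siFUBP1 replicate 3, at 0.60. BMP8A had 6 to 32 reads per sample in siMock and 7 to 19 in siFUBP1, and its log2 fold change of -0.80 did not pass (adjusted p = 0.191, edgeR). Without siMock replicate 1 it was -1.23 and passed, without siMock replicate 3 it was -0.13, and leaving out each sample in turn gave -1.39 to -0.13. BMP8A shares sequence with its near copy BMP8B and 267 exonic bases with PPIEL, so its counts are uncertain. BMP5 had at most 6 reads in any sample, and BMP3 and BMP7 had none, which allows up to 0.184 CPM.

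None of the 3 TGF-β ligands passed the threshold on the counts as deposited. TGFB1, the most abundant of them per length, was at 107, 89.6 and 78.1 CPM in siMock and 102, 97.0 and 92.4 CPM in siFUBP1, with the siFUBP1 samples inside the siMock range. The log2 fold change of TGFB1 was 0.08, with a 95% interval from -0.11 to 0.27. With a correction for GC content and gene length, TGFB1 did pass, at 0.37 (adjusted p = 2.10e-05, edgeR; the alternatives spanned adjusted p-values of 2.10e-05 to 0.842), and TGFB3 passed at -0.28 (adjusted p = 0.0277, edgeR; the alternatives spanned 0.0277 to 0.355). Scaling by total counts alone gave TGFB2 a call at 0.24, so each of these calls depends on the processing. The log2 fold change was 0.14 for TGFB2, with an interval from -0.06 to 0.35, and -0.23 for TGFB3, with an interval from -0.46 to 0.01. The intervals exclude a halving or a doubling for each of the 3. TGFB2 shares 1371 exonic bases with TGFB2-OT1 on the same strand, and TGFB1 shares 215 with HNRNPUL1 on the opposite strand.

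The latent TGF-β binding proteins, which tether secreted TGF-β in an inactive complex to the matrix, differed among themselves. LTBP3 (ENSG00000168056, chromosome 11, 65538805 to 65558930) was at 199, 190 and 173 CPM in siMock and 63.9, 69.9 and 56.5 CPM in siFUBP1. It fell by 1.56 on the log2 scale (SE 0.0862, adjusted p = 3.33e-14, edgeR). With the correction for GC content and length the log2 fold change of LTBP3 was -1.08. LTBP4, the most abundant of the 4 per length, fell from 224, 206 and 186 CPM to 115, 111 and 104 CPM, a log2 fold change of -0.90 (SE 0.081, adjusted p = 4.34e-10, edgeR) that was -0.42 with the correction for GC content and length. LTBP2, which does not bind latent TGF-β, rose from 2.39, 3.77 and 3.71 CPM to 4.26, 6.34 and 5.61 CPM, a log2 fold change of 0.72 (SE 0.215, adjusted p = 0.0056, edgeR) that was 1.03 with that correction. LTBP1 was at 25.5 ± 0.853 CPM in siMock and 28.98 ± 1.63 CPM in siFUBP1 (SD, n = 3), a log2 fold change of 0.19 that did not pass (adjusted p = 0.0945, edgeR), and it passed with the correction for GC content and length at 0.34. LTBP1 and LTBP2 share exonic bases with antisense genes, so a part of their reads may belong to those.

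All 4 type II receptors, which bind ligand and activate the type I receptor, rose, where 30.1% of all genes tested rose. ACVR2A (ENSG00000121989, chromosome 2, 147844517 to 147930826), a receptor for activins and some BMPs, was at 4.66, 4.41 and 4.87 CPM in siMock and 11.2, 11.01 and 9.91 CPM in siFUBP1. Its log2 fold change was 1.21 (SE 0.154, adjusted p = 2.01e-07, edgeR), and it shares 430 exonic bases with ORC4 on the opposite strand. The log2 fold changes of the other 3 were small, at 0.39 for ACVR2B, 0.26 for BMPR2 and 0.22 for TGFBR2. TGFBR2, the TGF-β receptor and the most abundant of the type II group per length, was at 147, 174 and 162 CPM in siMock and 176, 198 and 188 CPM in siFUBP1. Its highest siMock sample lay just under its lowest siFUBP1 sample (adjusted p = 0.0196, edgeR), and without siMock replicate 1 or siFUBP1 replicate 2 the change did not pass, at 0.15 and 0.19. BMPR2 did not pass in 6 of 14 alternatives, with the change at 0.18 to 0.26 there, among them DESeq2 and the omission of siMock replicate 2, siMock replicate 3 or siFUBP1 replicate 3. ACVR2B did not pass in limma when 1 or 0.1 was added to the FPKM before taking logarithms, at 0.22 and 0.37.

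Of the 5 type I receptors tested, 2 rose and 2 fell, where 30.1% of all genes tested rose and 30.1% fell. ACVR1B (ENSG00000135503, chromosome 12, 51951667 to 51997078), the activin receptor also called ALK4, was at 35.4, 36.7 and 34.7 CPM in siMock and 14.9, 15.6 and 16.4 CPM in siFUBP1. The fall was 2.28-fold, a log2 fold change of -1.19 (SE 0.0984, adjusted p = 9.39e-11, edgeR). ACVR1, a type I receptor of the BMP branch also called ALK2, rose from 9.31, 10.7 and 11.02 CPM to 16.9, 21.04 and 19.99 CPM, a log2 fold change of 0.90 (SE 0.126, adjusted p = 7.84e-07, edgeR). ACVRL1 (ENSG00000139567, chromosome 12, 51906908 to 51923361), also called ALK1 and known from endothelium, had 20, 19 and 12 reads in siMock and 2, 7 and 5 in siFUBP1. Its log2 fold change was -1.91, and leaving out each sample in turn gave -2.30 to -1.56. ACVRL1 reached the filter's level in siMock alone, so the difference was in part set by the filter and no p-value is given. TGFBR1, the TGF-β type I receptor, was at 31.6, 28.4 and 29.3 CPM in siMock and 35.4, 34.2 and 39.7 CPM in siFUBP1, a log2 fold change of 0.29 (SE 0.0944, adjusted p = 0.00966, edgeR). Without siMock replicate 2 or siFUBP1 replicate 3 it did not pass, at 0.26 and 0.23. BMPR1A was at 39.4 ± 2.74 CPM in siMock and 42.1 ± 2.11 CPM in siFUBP1 (SD, n = 3), with a 95% interval of the log2 fold change from -0.09 to 0.28. BMPR1B had 1 read in all 6 samples together.

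The coreceptors betaglycan (TGFBR3) and endoglin (ENG) differed less than the test could separate, with log2 fold changes of 0.14 (95% interval -0.02 to 0.31) and 0.06 (95% interval -0.11 to 0.23). ENG passed with the correction for GC content and length, at 0.35, and shares 313 exonic bases with an antisense gene. BAMBI (ENSG00000095739, chromosome 10, 28677342 to 28682939), a pseudoreceptor that lacks the kinase and dampens signalling, was at 11.8, 6.77 and 7.88 CPM in siMock and 3.61, 3.98 and 4.41 CPM in siFUBP1. Its siMock replicate 1 stood above the other siMock samples. The log2 fold change was -1.14 (SE 0.196, adjusted p = 1.71e-05, edgeR), and without siMock replicate 1 it was -0.88, short of 1 but still past the adjusted p.

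Of the receptor-regulated and common SMADs, 1 rose and 3 fell, and none reached a log2 fold change of 1. Past the adjusted p were 66.7% of them, near the 60.2% of all genes tested. SMAD3 was at 103, 109 and 94.9 CPM in siMock and 56.8, 54.8 and 58.0 CPM in siFUBP1, a log2 fold change of -0.85 (SE 0.0809, adjusted p = 1.10e-09, edgeR). SMAD2, which shares its upstream receptors, rose from 179, 179 and 185 CPM to 231, 242 and 229 CPM, a log2 fold change of 0.37 (SE 0.0737, adjusted p = 0.000105, edgeR). The 2 activin and TGF-β SMADs thus went in opposite directions with no overlap between groups in either. SMAD5, per length the most abundant BMP SMAD, fell from 91.3, 85.7 and 94.4 CPM to 68.6, 73.7 and 78.2 CPM, a log2 fold change of -0.30 (SE 0.0804, adjusted p = 0.00229, edgeR). SMAD1 was at 10.5, 13.9 and 13.1 CPM in siMock and 8.76, 9.17 and 10.4 CPM in siFUBP1, a log2 fold change of -0.41 (SE 0.14, adjusted p = 0.0138, edgeR) that did not pass without siMock replicate 2, at -0.32, or siFUBP1 replicate 1, at -0.35, nor in 3 other alternatives. SMAD4, the common partner, had a log2 fold change of -0.01 with a 95% interval from -0.19 to 0.16, and the sign changed with the processing. SMAD9 had 12 to 19 reads per sample and a log2 fold change of 0.05 with an interval from -0.76 to 0.85, too wide at this depth to show a difference. SMAD5 shares 610 exonic bases with SMAD5-AS1, SMAD1 shares 376 with SMAD1-AS1, and SMAD4 shares 967 with AC091551.1 on its own strand.

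Among the inhibitors inside the cell, SMAD6, which blocks mainly the BMP branch, fell from 97.8, 109 and 101 CPM to 57.1, 59.4 and 50.5 CPM. Its log2 fold change was -0.88 (SE 0.0836, adjusted p = 1.20e-09, edgeR), which correcting for GC content and length moved to -0.58. SMAD7, which blocks both branches, was at 34.4 ± 1.49 CPM in siMock and 31.7 ± 4.23 CPM in siFUBP1 (SD, n = 3), a log2 fold change of -0.12 with a 95% interval from -0.32 to 0.09. SKIL, a corepressor that binds SMADs, had a log2 fold change of -0.11 with an interval from -0.28 to 0.05. With the correction for GC content and length SMAD7 was at 0.15 and did not pass, whereas SKIL passed at -0.26. TGFBI, a matrix protein induced by TGF-β, rose from 219, 206 and 209 CPM to 417, 379 and 382 CPM, a log2 fold change of 0.89 (SE 0.0767, adjusted p = 1.83e-10, edgeR). BMP1, which despite its name is a procollagen proteinase and not a BMP ligand, fell from 180, 177 and 160 CPM to 99.4, 102 and 102 CPM, a log2 fold change of -0.77 (SE 0.0763, adjusted p = 2.34e-09, edgeR) that the same correction moved to -0.45.

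The sequences just before the start sites of ID1, FSTL3 and INHBB are shown because these genes were among the members that fell most in each of the target, antagonist and ligand groups. They come from RefSeq on GRCh38.p14, plus strand, and end at the gene start of the annotation or earlier, at chr20:31605039-31605282, chr19:676142-676364 and chr2:120345886-120346135. Capitals mark GGCGCC, a GC-rich motif of BMP-responsive SMADs that reads the same on both strands, and would also mark CAGAC or its reverse complement GTCTG, the core of the SMAD box.
ID1: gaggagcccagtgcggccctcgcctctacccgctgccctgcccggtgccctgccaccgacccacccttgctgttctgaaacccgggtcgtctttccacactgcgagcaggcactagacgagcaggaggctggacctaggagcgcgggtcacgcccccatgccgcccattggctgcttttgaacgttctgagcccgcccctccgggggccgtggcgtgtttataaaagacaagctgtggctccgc
FSTL3: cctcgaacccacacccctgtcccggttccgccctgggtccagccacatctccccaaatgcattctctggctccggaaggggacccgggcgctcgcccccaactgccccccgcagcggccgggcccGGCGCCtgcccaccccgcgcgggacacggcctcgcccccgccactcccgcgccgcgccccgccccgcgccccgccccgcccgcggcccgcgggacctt
INHBB: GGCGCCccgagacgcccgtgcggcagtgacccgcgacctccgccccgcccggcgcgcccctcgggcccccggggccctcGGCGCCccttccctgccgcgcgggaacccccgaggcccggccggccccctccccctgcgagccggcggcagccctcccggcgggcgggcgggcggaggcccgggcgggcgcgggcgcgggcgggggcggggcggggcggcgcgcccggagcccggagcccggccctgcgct
GGCGCC stands in capitals at 125 bases before the RefSeq start site of FSTL3 and at 250 and 171 bases before that of INHBB. The RefSeq start site of FSTL3 lies after the gene start of the annotation, where its printed stretch ends. Neither motif is in the ID1 stretch, and sequence further upstream was not searched. RefSeq windows of 300 bases, 250 before and 50 after a start site, were found for 44 of the 51 members, with 76 windows in all. GGCGCC was in 28.9% of the windows of members and in 19.2% of all 35116 windows, and CAGAC on either strand in 47.4% and 45.3%. Of the 8 members that fell past a log2 fold change of 1 and had a window, 4 held GGCGCC and 4 held CAGAC. Among the 3 that rose likewise, 0 held GGCGCC and 2 held CAGAC. Of the members that rose by less, at an adjusted p below 0.05, ACVR1, BMPR2, LTBP2, SMAD2, TGFBI and TGFBR1 also held the GC-rich motif. ACVR2B, BMP6 and TGFBR2 rose by less without it, and the windows of ID1, ID2 and ID3 lacked it. Counted per gene, with any window of a gene, the shares over 27305 genes were 22.0% for GGCGCC and 49.99% for CAGAC. Whether the members that fell held either motif more often than the other members was not tested. These counts describe letters in a window and no binding was measured here.

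Other genes of the pathway were taken from 6 lists of 156 genes in all, arranged by role. Of these, 109 were tested, and 34 rose and 46 fell at an adjusted p below 0.05. Among all genes tested, 30.1% rose and 30.1% fell at that threshold. Past a log2 fold change of 1 as well, 10 rose and 17 fell. The median log2 fold change of the 109 was -0.15. Past both thresholds were 24.8% of those tested, where 17.3% of all genes were, but only 100 of the 109 reached the level of the filter in both groups, and those that passed through their high group alone had to differ.

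Among 35 genes known to be induced by TGF-β, 29 were tested, 11 rose and 12 fell, where 30.1% of all genes rose and 30.1% fell. Of the 29, 28 reached the filter's level in both groups. CTGF, a matricellular growth factor, rose from 4.596, 4.24 and 4.23 CPM to 24.9, 32.9 and 25.5 CPM, a log2 fold change of 2.67 (SE 0.14, adjusted p = 1.42e-14, edgeR). Its relative CYR61 rose by 2.25 on the log2 scale. CDKN1A, which encodes the cell cycle inhibitor p21, fell from 246, 230 and 225 CPM to 40.4, 40.8 and 33.6 CPM, a log2 fold change of -2.61 (SE 0.0875, adjusted p = 3.85e-18, edgeR). COL1A1, the alpha 1 chain of collagen I, and JUNB, an AP-1 factor, had log2 fold changes of -1.31 and -1.16. Of 17 genes known to be induced by BMPs, 10 were tested, 3 rose and 5 fell. Only 7 of these 10 reached the filter's level in both groups, and a gene that passed through its high group alone had to differ. UNC5B, a netrin receptor, had the largest fall by the naming rule, from 23.7, 22.5 and 23.1 CPM to 1.36, 2.48 and 2.06 CPM, a log2 fold change of -3.54 (SE 0.167, adjusted p = 1.66e-15, edgeR).

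The 33 other extracellular modulators gave 20 tested genes, of which 4 rose and 10 fell, again beside 30.1% of all genes higher and 30.1% lower, a background that holds for the counts of the next lists too. Only 16 of the 20 modulators reached the filter's level in both groups, so their counts have the same limit. THBS1, thrombospondin 1, an activator of latent TGF-β, rose from 33.4, 32.9 and 30.9 CPM to 127, 128 and 130 CPM, a log2 fold change of 1.99 (SE 0.0812, adjusted p = 1.30e-16, edgeR). KCP, a chordin relative, rose by 1.25 on the log2 scale. HTRA1, a secreted protease that inhibits signalling by the family, had a log2 fold change of -1.83, TWSG1, a BMP-binding protein, of -1.28, and CRIM1, a membrane protein with chordin-like repeats, of -1.24. Among 20 other ligands only 5 were tested, and GDF15, a stress-induced member, rose from 130, 121 and 103 CPM to 262, 354 and 198 CPM, a 2.3-fold change (SE 0.245 on the log2 scale, adjusted p = 0.009996, edgeR). INHA, the inhibin alpha subunit, which opposes activin, and BMP8B had log2 fold changes of -1.55 and -1.69, and the counts of BMP8B are uncertain because of its near copy BMP8A. Of 14 other receptors and receptor partners, 9 were tested, 1 rose and 6 fell, among them TGFBR3L (-1.53) and NEO1 (-1.30), a receptor of the BMP coreceptors of the RGM family.

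The largest list, 37 regulators of SMADs inside the cell, was expressed almost throughout, with 36 tested, 13 higher and 11 lower, shares near the 30.1% and 30.1% of all genes. Past a log2 fold change of 1 it held 2 genes, 5.56% of those tested beside 17.3% of all genes. PPP1R15A, also called GADD34, which brings a phosphatase to eIF2α and to the TGF-β type I receptor, rose from 32.0, 24.3 and 21.0 CPM to 143, 196 and 120 CPM, a log2 fold change of 2.57 (SE 0.263, adjusted p = 0.00059, edgeR). TOB1, an antiproliferative protein that restrains BMP SMADs, fell from 266, 265 and 254 CPM to 54.9, 51.3 and 66.7 CPM, a log2 fold change of -2.18 (SE 0.0892, adjusted p = 1.30e-16, edgeR).

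**Figure D4:**
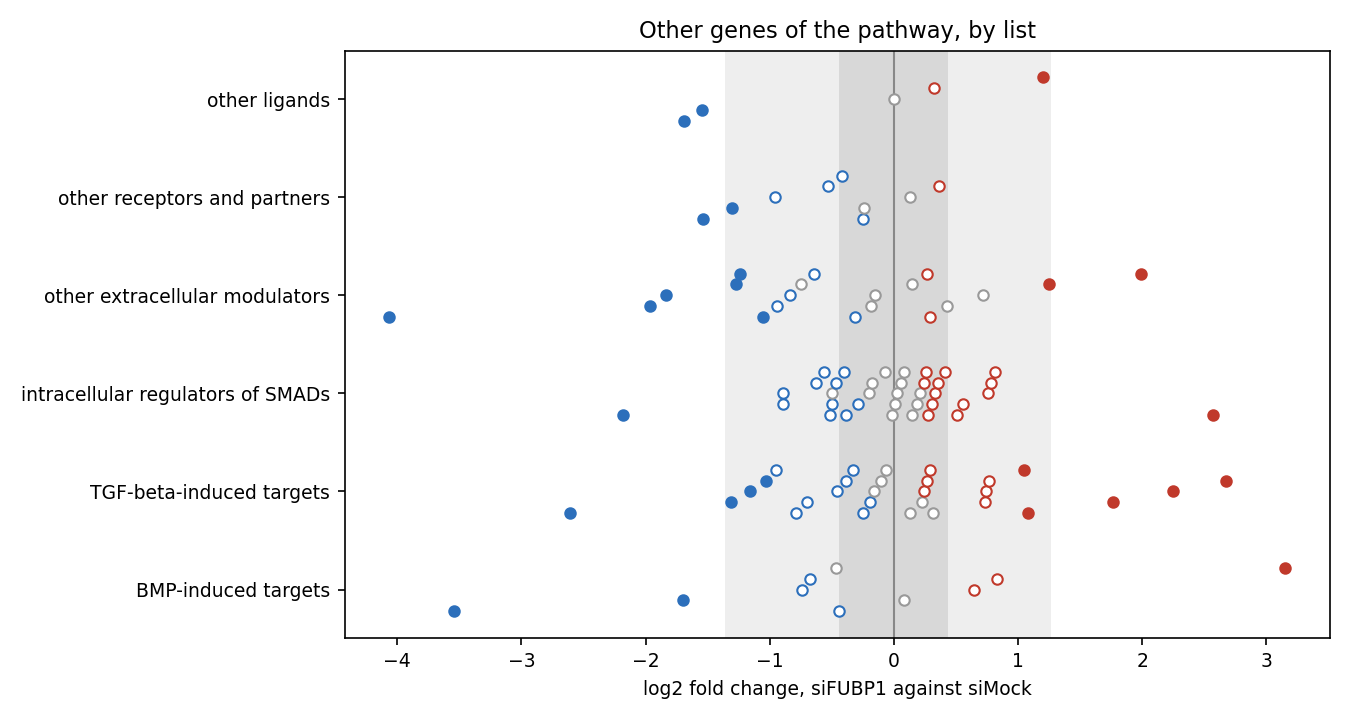
Log2 fold change of siFUBP1 against siMock for each tested gene of the 6 other pathway lists. Red is higher and blue lower at an adjusted p below 0.05, grey did not pass, filled points are also beyond a log2 fold change of 1, and the bands behind them hold the middle of all genes tested (darker, between the quartiles) and all but the outer tails (lighter), with a line at the median. Filled points lie on both sides of 0 in the targets of TGF-β.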

How the data were processed

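Poly(A) RNA of 6 samples was sequenced. The read counts per gene, the FPKM values and the gene lengths are as deposited by the authors. The submitters' processing notes name HISAT2 2.0.5, StringTie 1.3.3b, featureCounts 1.5.0-p3 and DESeq2 1.16.1 without roles, and the use of strand is not given in the sources used here. FPKM was scaled by the authors with a factor per sample. The deposited signal columns (group means by their names), the authors' log2 fold changes and the authors' p-values come from their own comparison and were not used. All 58735 gene identifiers and their positions are those of GENCODE release 29 (GRCh38).

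Samples were grouped by title. The count test was run with edgeR 4.0.16 (R 4.3.3), using TMM scaling, its expression filter with a minimum count of 10 and a robust quasi-likelihood F test. P-values were adjusted over 16116 genes by the Benjamini-Hochberg procedure. TMM factors lay between 0.959 and 1.05. Levels between genes are RPKM, the CPM per kilobase of the deposited gene length. No pair of samples agreed within sampling noise, the chi-square per gene being at least 5.79. The test was also tested on simulated data.

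The members and lists were chosen with earlier results of these data known. The text names members past both thresholds, the most abundant and most changed of each role, members of small roles, and in each further list up to 3 genes per direction past both thresholds at a mean of 50 counts or more. Of the listed symbols, 3 were not in the table. The value of 1 gene that the rule names is not reported here. Alternatives were other scalings, no filter, DESeq2 1.42.0, limma 3.58.1 on log2(FPKM + 1) and log2(FPKM + 0.1), an adjusted p below 0.01, the replicate number as a block, a smooth correction for GC content and gene length (span 0.3), and leaving out each sample.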

Additional observations from a re-analysis of the deposited data

How the results depend on the processing

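Of the 44 members tested, 26 kept their direction and their side of the threshold in all 14 alternatives, and so did 25 of the 31 that passed. The number of members higher past both thresholds was 4. It was 5 with total counts only, with the correction for GC content and length and without siFUBP1 replicate 1, and 1 with limma on log2(FPKM + 1), where the added constant pulls in the change of low genes such as INHBA (0.37) and ACVRL1 (-0.19). The number lower was 9 and ranged from 6 to 10. INHBA was 1.73 and ACVRL1 -0.99 with 0.1 added in place of 1. Members whose sign changed had not passed: SMAD4 was 0.085 with total counts only and 0.0032 with no filter, SMAD9 was -2.4e-04 and SMAD7 0.15 with the correction for GC content and length. Leaving out each sample in turn gave -0.023 to 0.20 for TGFB1, -0.0045 to 0.12 for ENG, -0.083 to 0.043 for SMAD4 and -0.12 to 0.22 for SMAD9. The median of the members lay between -0.16 and 0.034 over the alternatives. FUBP1 stayed between -2.58 and -2.31. Scaling by total counts moved the median of all genes to 0.10, and TGFB2 (0.24), TGFBR3 (0.24), LTBP1 (0.28) and BMP4 (0.56) then passed while BMP2 (-0.15) and SMAD1 (-0.31) did not. SMAD1 also lost its call in both limma settings, at -0.25 and -0.38. With the replicate number as a block, 13 members were higher and 18 lower, 4 and 9 past both thresholds, and all 44 calls were kept, with 10014 genes past the adjusted p in all against 9695. Same-numbered samples deviated together only weakly, with correlations from -0.0051 to 0.16. With 3 such pairs, this cannot show whether the numbers pair the samples. Counts of a few reads (INHBA, ACVRL1, SMAD9, BMP8A) limit what this depth can show.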

Other observations

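Outside the naming rule, 4 genes of the further lists with fewer than 50 counts on average were chosen after their values were seen. Each reached the level of the filter on low counts in 1 group alone, so only their reads are given and no test. They are included in the counts of tested genes given for those lists above. RUNX2, a BMP-induced transcription factor of the osteoblast lineage, had 8, 8 and 6 reads in siMock and 73, 97 and 39 in siFUBP1. ITGB6, an integrin subunit that activates latent TGF-β on epithelial cells, had 16, 14 and 23 reads in siMock and 0, 2 and 1 in siFUBP1. FMOD, fibromodulin, which binds TGF-β in the matrix, had 30, 50 and 25 reads in siMock and 10, 8 and 10 in siFUBP1. DLX3, a BMP-induced homeobox factor, had 48, 40 and 33 reads in siMock and 15, 14 and 10 in siFUBP1.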
